A study of Oncorhynchus mykiss with 9 samples.

Results

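Phosphoenolpyruvate carboxykinase (PEPCK) was followed at the level of its transcripts in IgM+ B cells of rainbow trout spleen. The gene table of the study lists 3 rows with this enzyme in their description, among 46585 genes. The 2 genes described here are GSONMG00059643001, annotated as phosphoenolpyruvate carboxykinase with no compartment named, and GSONMG00051764001, annotated as the GTP-using mitochondrial form (mitochondrial PEPCK below). Both were chosen by their own counts in these libraries, which had already been seen to differ between the conditions, so their levels and fold changes are given as a description and without a test. Both passed the filter on low counts (5 reads or more in 1 or more libraries), as did 31691 genes in all. The remaining PEPCK row, GSONMG00082468001, is annotated as the cytosolic form and had 3 reads in all 9 libraries together. These were 1 read each in TNP-KLH replicate 1, TNP-KLH replicate 3 and TNP-LPS replicate 2, so no fold change can be given for it. Positions of these genes in the genome are not given here, because the gene identifiers matched none of the rows of the reference table used.

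Leukocytes from the spleens of female trout of 50 to 70 g were cultured for 24 h without antigen (control), with TNP-KLH or with TNP-LPS, and IgM+ B cells were then sorted for RNA-seq. TNP is the hapten trinitrophenyl, which is coupled in TNP-KLH to keyhole limpet hemocyanin, a large mollusc protein, and in TNP-LPS to lipopolysaccharide, a component of bacterial cell walls. In mammals these stand for thymus-dependent and thymus-independent antigens, respectively. Each condition had 3 libraries, and the antigens were given at 5 µg/ml according to the methods (the sample labels state 5 mg/ml). All came from healthy fish without further treatment named. Since the sort followed the culture, the B cells had been with the other spleen leukocytes during stimulation.

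PEPCK turns oxaloacetate, an intermediate of the tricarboxylic acid (TCA) cycle, into phosphoenolpyruvate, at the cost of GTP. In vertebrates a cytosolic and a mitochondrial form are encoded by separate genes. The cytosolic enzyme is best known from liver and kidney, where it is a control point of gluconeogenesis, the making of new glucose, and its transcription answers to hormones. The mitochondrial enzyme is also found outside these organs. In mammals its gene is a target of the transcription factor ATF4, and the phosphoenolpyruvate it makes can feed the synthesis of serine, glycine and glycerol phosphate when glucose is scarce.

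Total counts ran from 8080787 to 12164154 per library. Of the 48 rows annotated as B cell markers, 38 were kept, and their summed level was 3431 to 4057 CPM in control, 2796 to 3061 with TNP-KLH and 2031 to 2404 with TNP-LPS, lower with each antigen than in any control library. CPM are reads of a gene per 1000000 reads of the library, scaled here by TMM factors. The receptor chains of the CD79 type, the B cell linker and CD22 were found in all 9 libraries, while the words used for Pax5 and the immunoglobulin heavy chain matched no description. Markers of other cells were low apart from erythrocyte genes, which summed to 6898 CPM in control replicate 2 and 2377 CPM in TNP-KLH replicate 2, against 32.2 to 395 CPM in the other 7 libraries. Summed T cell markers ran from 2.40 to 76.2 CPM, those of monocytes and macrophages from 1.11 to 25.9 CPM, those of neutrophils from 5.48 to 39.6 CPM and those of endothelium and stroma from 15.4 to 88.9 CPM. CD8 was at 0 in 3 libraries and myeloperoxidase in all 9. In contrast, CD3, CD4, ZAP-70 and matrix metalloproteinase-9 had reads in every library. CD3 ran from 1.64 to 42.0 CPM and matrix metalloproteinase-9 from 3.19 to 30.6 CPM, so some reads of other cells were present. Thrombocyte markers were at 99.5 to 331 CPM in control, 55.8 to 106 CPM with TNP-KLH and 47.9 to 87.3 CPM with TNP-LPS. The part of these differences in the PEPCK values was not tested, and in sorted cells fewer cells of a kind and less RNA per cell cannot be told apart.

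Mean levels of both PEPCK genes were lowest in unstimulated IgM+ B cells and highest after TNP-LPS, with TNP-KLH in between. Among all genes kept, the control means stood at percentile 47.7 for GSONMG00059643001 and 55.2 for mitochondrial PEPCK, and the TNP-LPS means at percentiles 84.5 and 85.5. GSONMG00059643001 was read 57, 54 and 55 times in the control libraries, 136, 126 and 113 times with TNP-KLH, and 226, 298 and 396 times with TNP-LPS. Scaled to the libraries, these reads correspond to 5.76, 5.64 and 4.28 CPM in control, 14.8, 11.5 and 12.3 CPM with TNP-KLH, and 35.1, 31.5 and 36.8 CPM with TNP-LPS. The 3 conditions thus did not overlap, and every TNP-KLH library lay between the controls and the TNP-LPS libraries. This strict order, control below TNP-KLH below TNP-LPS, was also seen in 5.27% of all genes tested.

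The group means of GSONMG00059643001 were 5.23 ± 0.825 CPM in control, 12.9 ± 1.75 CPM with TNP-KLH and 34.4 ± 2.70 CPM with TNP-LPS (SD, n = 3). Its mean was therefore 6.59 times as high with TNP-LPS and 2.46 times as high with TNP-KLH as in control, and the distance covered by TNP-KLH was 26.2% of that covered by TNP-LPS. In a model of all 9 libraries, the log2 fold change over control was 2.72 (SE 0.21) with TNP-LPS and 1.30 (SE 0.21) with TNP-KLH, and TNP-LPS exceeded TNP-KLH by 1.42 (SE 0.20). The median log2 fold change of all genes tested was −0.09, −0.03 and −0.03 in these comparisons. With TNP-LPS 486 genes had a larger log2 fold change over control, and with TNP-KLH 1485 genes did.

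Mitochondrial PEPCK was read 135, 50 and 44 times in control, 141, 170 and 90 times with TNP-KLH, and 212, 451 and 333 times with TNP-LPS. Its levels were 13.7, 5.22 and 3.42 CPM in control, 15.4, 15.5 and 9.81 CPM with TNP-KLH, and 32.9, 47.6 and 30.9 CPM with TNP-LPS. All 3 TNP-LPS libraries were above the other 6, which was the case for TNP-LPS over control in 17.4% of genes and for TNP-LPS over TNP-KLH in 14.0% of genes. Control and TNP-KLH overlapped, however, because control replicate 1 was higher than TNP-KLH replicate 3. For GSONMG00059643001, by contrast, TNP-KLH lay above control in every library, as it did in 9.67% of genes.

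The group means of mitochondrial PEPCK were 7.43 ± 5.46 CPM in control, 13.6 ± 3.24 CPM with TNP-KLH and 37.2 ± 9.13 CPM with TNP-LPS (SD, n = 3). Its log2 fold change over control was 2.33 (SE 0.47) with TNP-LPS and 0.87 (SE 0.45) with TNP-KLH, and TNP-LPS exceeded TNP-KLH by 1.45 (SE 0.45). In the same comparisons 845, 3102 and 757 genes had a larger log2 fold change. The distance from control covered by TNP-KLH was 20.6% of that covered by TNP-LPS. Single control libraries decided part of these values, in both directions. Without control replicate 1 the log2 fold change was 3.12 (SE 0.37) for TNP-LPS and 1.72 (SE 0.35) for TNP-KLH, both against the remaining controls. Without control replicate 3 it was 1.98 (SE 0.43) for TNP-LPS and 0.58 (SE 0.41) for TNP-KLH.

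**Figure D1:**
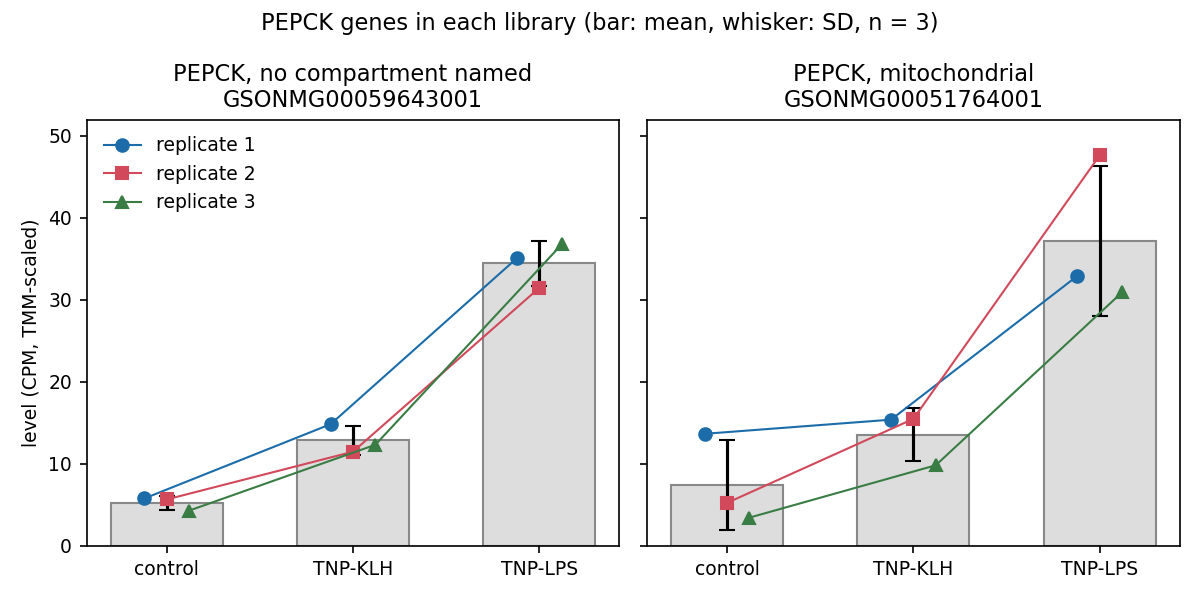
Levels of the 2 PEPCK genes in CPM (vertical axis) in the 3 conditions. Each point is 1 library, lines join libraries with the same replicate number, bars are means and whiskers SD of 3 libraries. The TNP-LPS libraries lie highest in both panels, from 31.5 to 36.8 CPM on the left and from 30.9 to 47.6 CPM on the right, and control replicate 1 of mitochondrial PEPCK stands at 13.7 CPM, inside the TNP-KLH range.

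The PEPCK genes had different spreads between libraries. The coefficient of variation of GSONMG00059643001 was 15.8% in control, 13.6% with TNP-KLH and 7.85% with TNP-LPS. For mitochondrial PEPCK it was 73.5%, 23.9% and 24.6%. The edgeR estimate of the biological coefficient of variation was 0.220 for GSONMG00059643001 and 0.399 for mitochondrial PEPCK, beside 0.336 and 0.333 for genes of the same abundance. No test of this difference in spread was run.

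Libraries with the same number resembled each other across conditions, so folds were also taken within each number. For GSONMG00059643001 the level with TNP-LPS was 6.09, 5.58 and 8.59 times that of the control with the same number, and with TNP-KLH it was 2.57, 2.03 and 2.88 times. For mitochondrial PEPCK the folds with TNP-LPS were 2.41, 9.12 and 9.03, and those with TNP-KLH were 1.13, 2.96 and 2.87. Numbers 2 and 3 therefore gave nearly the same mitochondrial response, and number 1, with its high control, a smaller one. Set against TNP-KLH of the same number, TNP-LPS was at 2.37, 2.74 and 2.98 times for GSONMG00059643001 and at 2.14, 3.08 and 3.15 times for mitochondrial PEPCK. With the replicate number as a block in the model, mitochondrial PEPCK exceeded control by 2.46 (SE 0.30) with TNP-LPS and by 0.96 (SE 0.30) with TNP-KLH on the log2 scale, and the antigens differed by 1.50 (SE 0.29). The same differences of GSONMG00059643001 were 2.73 (SE 0.21), 1.30 (SE 0.21) and 1.43 (SE 0.19). The block brought the SE of mitochondrial PEPCK down and left that of the other gene about where it was.

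**Figure D2:**
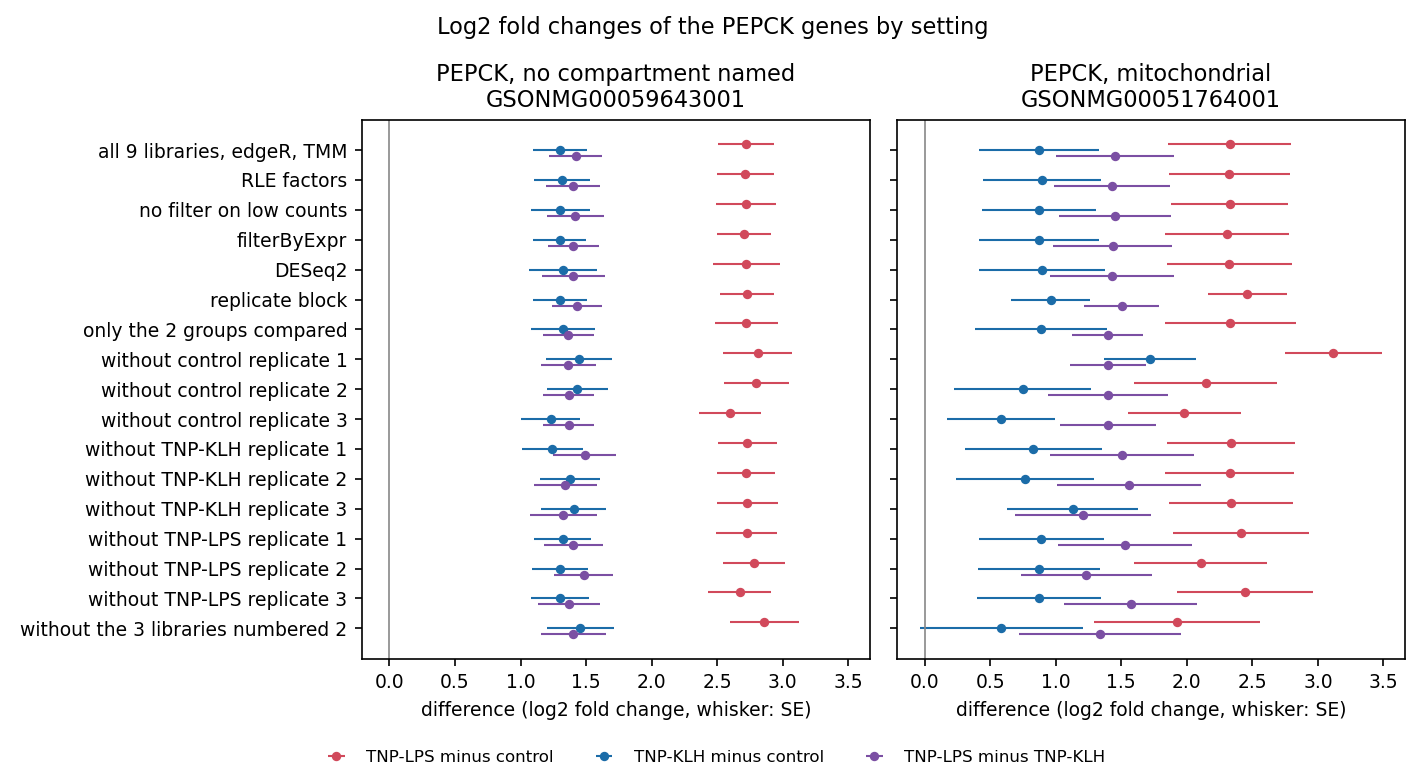
Log2 fold changes of GSONMG00059643001 (left) and mitochondrial PEPCK (right) on the horizontal axis under each way of processing the counts (rows), with whiskers of 1 SE. Colours mark the 3 comparisons. The left panel hardly moves, whereas on the right leaving out control replicate 1 takes TNP-LPS against control from 2.33 to 3.12 and TNP-KLH against control from 0.87 to 1.72. Leaving out control replicate 3 takes the same comparisons down to 1.98 and 0.58.

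The reads were next divided between the genes, asking whether an antigen favoured either of them. How many reads a gene collects also depends on its length, which the files do not give, so the share can be compared between libraries only. Mitochondrial PEPCK took 70.3%, 48.1% and 44.4% of the reads of both genes in the control libraries, 50.9%, 57.4% and 44.3% with TNP-KLH, and 48.4%, 60.2% and 45.7% with TNP-LPS. The group means were 54.3 ± 14.0%, 50.9 ± 6.55% and 51.4 ± 7.73% (SD, n = 3), closer to each other than the libraries of any group. Only the 95% Wilson interval of control replicate 1, 63.5 to 76.3%, and those of TNP-KLH replicate 2 (51.7 to 62.9%) and TNP-LPS replicate 2 (56.7 to 63.7%) lay above an even split, and that of TNP-LPS replicate 3 (42.1 to 49.3%) lay below it. These intervals cover counting error only. With gene lengths unknown, the even split is only a common line and does not show which gene had more transcripts. With both antigens the libraries numbered 2 had the largest mitochondrial share and those numbered 3 the smallest.

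**Figure D3:**
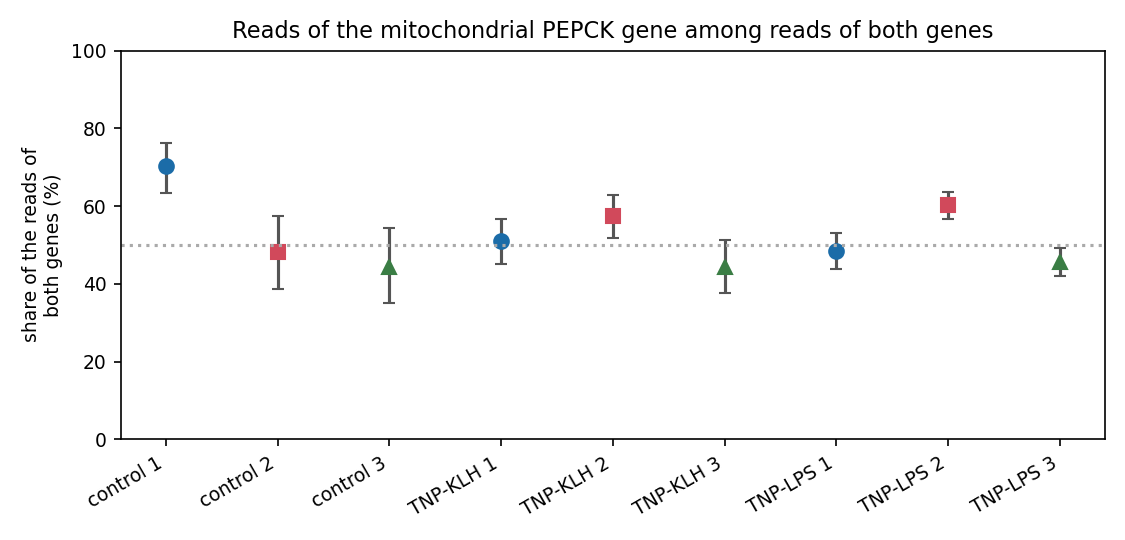
Reads of mitochondrial PEPCK as a percentage of the reads of both PEPCK genes (vertical axis) in each library, with 95% Wilson intervals that cover counting error only. The dotted line marks an even split, drawn only as a common line because gene lengths are unknown. Control replicate 1 stands at 70.3%, and the other 8 libraries lie between 44.3% and 60.2%.

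Over the 9 libraries, log2 CPM of both genes had a Pearson correlation of 0.908, which holds the differences between conditions. Of the deviations from the group means, which do not, the correlation was 0.440. These points share libraries and depth, and both values are descriptions.

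The genes around the PEPCK reaction were then read from lists made by enzyme name, 308 rows in all, of which 261 were tested. Differential expression was called with edgeR's quasi-likelihood test at a Benjamini-Hochberg adjusted p under 0.05. In TNP-LPS against control 16.8% of all genes were called, 10.04% higher and 6.73% lower, and of the 261 listed genes 75 rose and 14 fell. Their median log2 fold change was 0.55, beside −0.09 for all genes. With the replicate block, 109 rose and 24 fell, while 30.5% of all genes were called, 16.3% higher and 14.2% lower.

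Gluconeogenesis, the pathway for which PEPCK is best known, was sparsely covered. Of 18 rows 10 were tested, 5 of these with a mean under 2 CPM, and 0 were called in TNP-LPS against control by edgeR or by DESeq2, with 2 at an unadjusted p under 0.05. With 16.8% of all genes called, so short a list allows no statement about the pathway. The median log2 fold change was 0.02. Pyruvate carboxylase (GSONMG00069553001), which makes the oxaloacetate that PEPCK uses, was at 24.2 ± 3.77 CPM in control, 20.2 ± 3.58 CPM with TNP-KLH and 17.4 ± 1.45 CPM with TNP-LPS. Its log2 fold change with TNP-LPS was −0.48 (SE 0.20; edgeR adjusted p = 0.155). Fructose-1,6-bisphosphatase (GSONMG00001932001), which acts later in glucose synthesis, averaged under 1 CPM in each condition, the highest mean being 0.901 CPM with TNP-LPS. Glucose-6-phosphatase 3 (GSONMG00069816001), the form of the last enzyme that mammals express widely, was at 3.04 ± 0.555 CPM in control and 5.55 ± 0.234 CPM with TNP-LPS (edgeR adjusted p = 0.0737). It alone passed with the replicate block, at an adjusted p of 0.0364.

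Some of the genes on either side of phosphoenolpyruvate in glycolysis rose, and copies of an enzyme differed. Of 48 tested genes of lower glycolysis and pyruvate use, 16 rose with TNP-LPS and 1 fell. Among all genes 10.04% were called higher and 6.73% lower, and 15 of the 48 had a mean under 2 CPM. Of 11 tested genes of enolase, which forms phosphoenolpyruvate in glycolysis, only GSONMG00032562001 was called, going from 88.4 ± 9.33 to 244 ± 52.1 CPM, a log2 fold change of 1.46 (edgeR adjusted p = 0.00156). The next most abundant enolase genes (GSONMG00016130001, GSONMG00024062001 and GSONMG00037421001), with means of 142, 135 and 107 CPM over all libraries, had log2 fold changes of 0.15, −0.01 and −0.12 and were not called. Pyruvate kinase (GSONMG00039311001), which uses phosphoenolpyruvate up, went from 45.4 ± 5.36 to 132 ± 11.7 CPM, a log2 fold change of 1.54 (edgeR adjusted p = 9.60e-04). Phosphoglycerate kinase (GSONMG00071424001) and glyceraldehyde-3-phosphate dehydrogenase (GSONMG00011170001) rose by 1.50 and 1.36 on the log2 scale. Pyruvate dehydrogenase kinase, which switches off the entry of pyruvate into the TCA cycle, went both ways. One gene annotated as its isozyme 3 (GSONMG00004085001) rose by 1.73, and another (GSONMG00027187001), the gene of the list that fell, went from 11.1 to 4.45 CPM and fell by 1.31 (edgeR adjusted p = 0.00797). Of the 8 kinase genes tested, 2 rose and 1 fell. In the complex itself, the pyruvate dehydrogenase E1 beta subunit (GSONMG00007775001) rose by 2.07. Phosphoglycerate mutase 1 (GSONMG00054306001), lactate dehydrogenase B (GSONMG00002192001) and the most abundant copy of the pyruvate dehydrogenase E1 alpha subunit (GSONMG00007360001) did not pass, with log2 fold changes of 0.51, 0.37 and 0.28. Of the less abundant E1 alpha copies, GSONMG00009510001 and GSONMG00004100001 rose by 1.32 and 1.01 (edgeR adjusted p = 0.0137 and 0.0209), and the others tested were not called. For GSONMG00004100001 the adjusted p reached 0.0683 when 1 library was left out.

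Many genes of the TCA cycle, the source of the PEPCK substrate, rose. Of 59 tested, 25 rose and none fell, with a median log2 fold change of 1.00, and 38 rose with the block. Among all genes, 10.04% were called higher without the block and 16.3% with it. A mean under 2 CPM was found for 10 of the 59. Mitochondrial malate dehydrogenase (GSONMG00016374001), which makes oxaloacetate, was at 66.2, 65.1 and 54.5 CPM in control, 95.2, 105 and 97.1 CPM with TNP-KLH, and 248, 193 and 206 CPM with TNP-LPS. Its 3 conditions did not overlap, a strict order seen in 5.27% of all genes, and its log2 fold change with TNP-LPS was 1.80 (edgeR adjusted p = 3.80e-04). Aconitase (GSONMG00036576001), citrate synthase (GSONMG00080933001), which consumes oxaloacetate, and 2-oxoglutarate dehydrogenase (GSONMG00075407001) rose by 1.74, 1.42 and 0.97. Isocitrate dehydrogenase subunit gamma (GSONMG00074472001) and the succinate dehydrogenase flavoprotein (GSONMG00024730001) did not pass, with 0.36 and 0.51. The flavoprotein gene did pass with the block (edgeR adjusted p = 0.0383). Genes of an enzyme differed, with 2 of 10 called higher for isocitrate dehydrogenase, 4 of 11 for succinate dehydrogenase and 4 of 15 for 2-oxoglutarate dehydrogenase. The succinate-CoA ligase beta subunit (GSONMG00053055001) rose by 0.92, a call lost without control replicate 3 (edgeR adjusted p = 0.0533).

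Among 39 genes that lead glutamine, aspartate and malate into or out of oxaloacetate, 13 rose and 3 fell. The shares of all genes were 10.04% and 6.73%, and 8 of the 39 had a mean under 2 CPM. Mitochondrial aspartate aminotransferase (GSONMG00036879001), which interconverts aspartate and oxaloacetate, was at 16.0 ± 3.63 CPM in control, 31.7 ± 2.76 CPM with TNP-KLH and 73.2 ± 21.5 CPM with TNP-LPS, a log2 fold change of 2.19 with TNP-LPS (edgeR adjusted p = 6.10e-04). The copy of glutaminase with most reads (GSONMG00000883001) had a log2 fold change of −0.07 and was not called, whereas a less abundant copy (GSONMG00046259001) rose by 1.86. Glutamate dehydrogenase (GSONMG00064588001) had 0.25 and was not called. ATP-citrate synthase returns citrate to oxaloacetate in the cytosol. Its copy with most reads (GSONMG00020531001) had a log2 fold change of 0.04 and was not called, and another (GSONMG00064821001) rose by 1.39. Among the 8 genes tested for this enzyme, 3 were called higher. Of 8 malic enzyme genes tested, 1 rose and 3 fell, and these 3 were all the genes of the list that fell. The copy that rose (GSONMG00056069001) did so by 1.46, a call lost without TNP-LPS replicate 2 (edgeR adjusted p = 0.0502). Of 11 tested mitochondrial carriers 5 rose and none fell, including 3 copies of the calcium-binding aspartate/glutamate carrier Aralar (GSONMG00010654001, GSONMG00031546001 and GSONMG00046783001) by 1.67, 1.80 and 1.46. The 2-oxoglutarate/malate carrier (GSONMG00049215001) rose by 2.41, and 1 of the 3 tested genes of the mitochondrial pyruvate carrier rose too. Its most abundant copy (GSONMG00056073001) and the citrate carrier (GSONMG00021826001) passed only with the block (edgeR adjusted p = 0.0114 and 0.0255). Copies of a duplicated gene can share reads, so their values may not be independent.

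Serine and glycine synthesis had the largest median of the lists, 2.34 over 9 genes, and 5 of the 9 rose with TNP-LPS. With the replicate block 8 of the 9 did. Among all genes, 10.04% were called higher without the block and 16.3% with it. Of the 9 genes, 4 are copies of D-3-phosphoglycerate dehydrogenase, of which 2 were called without the block, and copies can share reads. So short a list allows no statement about the pathway. Mitochondrial serine hydroxymethyltransferase (GSONMG00047982001), which makes glycine from serine, was at 224, 161 and 184 CPM in control, 338, 369 and 399 CPM with TNP-KLH, and 789, 751 and 773 CPM with TNP-LPS. The conditions did not overlap, as in 5.27% of all genes, and the log2 fold change with TNP-LPS was 2.02 (SE 0.20, edgeR adjusted p = 2.55e-04). D-3-phosphoglycerate dehydrogenase (GSONMG00030677001), the first enzyme of serine synthesis, was at 141, 100.3 and 25.3 CPM in control, 222, 229 and 86.3 CPM with TNP-KLH, and 449, 566 and 334 CPM with TNP-LPS. As for mitochondrial PEPCK, its controls were spread widely, with replicate 1 highest and replicate 3 lowest. Its log2 fold change with TNP-LPS was 2.34 (SE 0.59; edgeR adjusted p = 0.0223), and the call was lost without control replicate 2 (adjusted p = 0.0597) or TNP-LPS replicate 2 (adjusted p = 0.0708). A phosphoserine phosphatase (GSONMG00079100001), the last step to serine, rose by 2.05. Phosphoserine aminotransferase (GSONMG00058137001), the step between, was at 3.58 ± 3.41 CPM in control and 22.7 ± 17.0 CPM with TNP-LPS. Its edgeR adjusted p was 0.0534, and 7.13e-06 with the block. The less abundant of the 2 genes tested for this step was called higher without the block.

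Glycerol phosphate, another product that phosphoenolpyruvate can feed, gave a mixed list, with 2 of 19 genes up and 4 down. Among all genes 10.04% were called higher and 6.73% lower. As 8 of the 19 genes had a mean under 2 CPM, so short a list allows no statement about the pathway. Mitochondrial glycerol-3-phosphate dehydrogenase (GSONMG00018993001) rose by 2.07 (edgeR adjusted p = 0.00189), whereas the cytoplasmic, NAD-dependent form (GSONMG00047702001), which makes glycerol phosphate, fell by 1.03 (edgeR adjusted p = 0.00705). Glycerol-3-phosphate acyltransferase 3 (GSONMG00038174001), which uses it for lipids, went from 11.3 ± 3.18 CPM to 1.50 ± 0.490 CPM and fell by 2.87. The acyltransferase 4 gene (GSONMG00027247001) rose by 0.93, a call lost in 4 of the 9 fits that leave out 1 library, and glycerol kinase (GSONMG00031894001) had 0.88 and was not called.

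**Figure D4:**
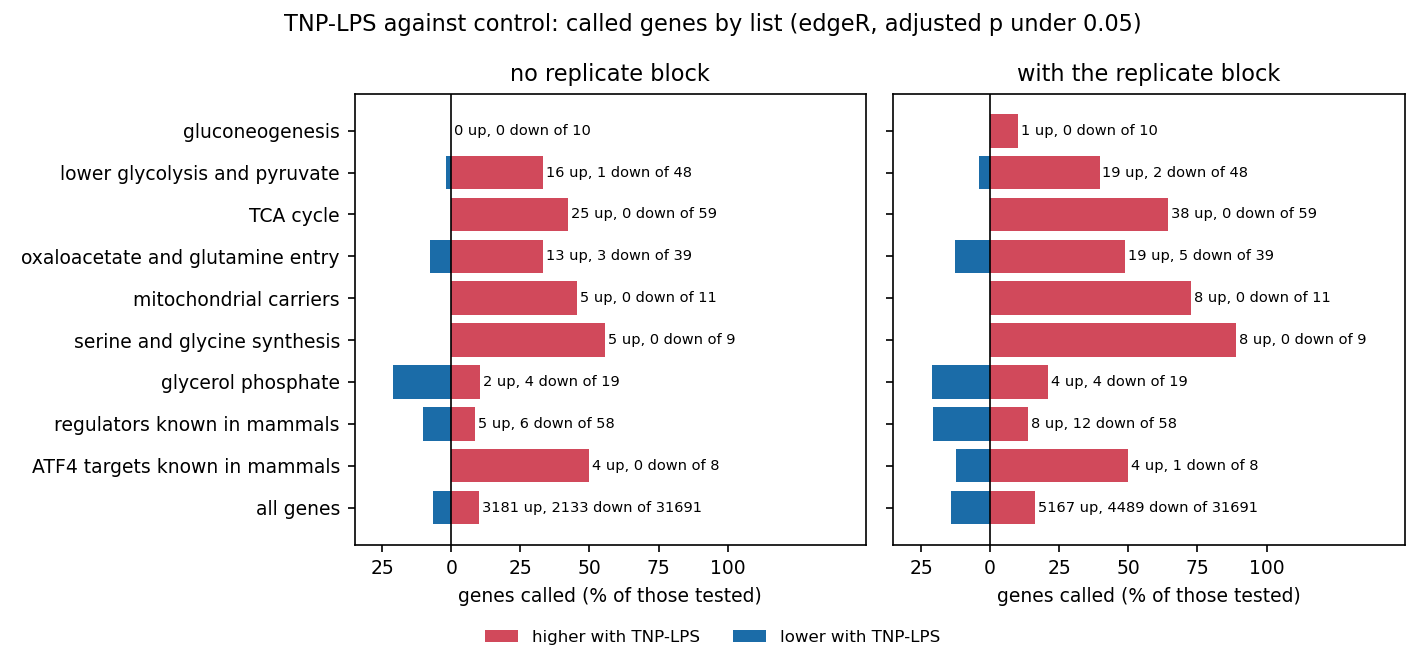
Share of the tested genes of each list that was called in TNP-LPS against control (horizontal axis, percent, edgeR adjusted p under 0.05), higher to the right and lower to the left, without (left panel) and with (right panel) the replicate number as a block. The bottom row gives all 31691 genes. Gluconeogenesis had 0 of 10 genes called without the block, and serine and glycine synthesis 5 of 9.

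Of 58 tested genes of regulators that act on PEPCK genes in mammals, 5 rose and 6 fell (19.0%), a share near the 16.8% of all genes called, so the list as a whole is no result. Genes of the PGC-1 family, of which 8 were tested, made up 4 of the 5 that rose. Its founding member, PGC-1-alpha, is known in mammalian liver for driving the cytosolic PEPCK gene, but the 3 tested genes annotated as PGC-1-alpha were not called, and the 4 are annotated as PGC-1-beta (GSONMG00033950001 and GSONMG00017628001) and as copies of the PGC-1-related coactivator (GSONMG00075158001 and GSONMG00019093001), which in mammals act on mitochondrial genes. GSONMG00075158001 was at 59.2 ± 12.8 CPM in control, 169 ± 15.0 CPM with TNP-KLH and 322 ± 41.5 CPM with TNP-LPS, a log2 fold change of 2.44 with TNP-LPS (edgeR adjusted p = 2.43e-04). GSONMG00019093001, GSONMG00033950001 and GSONMG00017628001 rose by 2.39, 3.55 and 1.72. ATF4 (GSONMG00056226001), a regulator of the amino acid response, was already at 1952 ± 205 CPM in control and reached 3375 ± 313 CPM with TNP-LPS. Its log2 fold change was 0.79 (edgeR adjusted p = 0.0107), and the other ATF4 genes, of 3 tested, were not called. FOXO4 (GSONMG00041072001) and a glucocorticoid receptor (GSONMG00020826001) fell by 0.86 and 1.11, with edgeR adjusted p-values of 0.0428 and 0.0346. These calls were lost in 7 and 5 of the 9 fits that leave out 1 library. CREB1 (GSONMG00051777001), HNF4-gamma (GSONMG00038228001) and C/EBP-gamma (GSONMG00049955001) did not pass, with −0.22, −0.57 and 0.75, although C/EBP-gamma did with the block (adjusted p = 0.00374). Of the 6 genes that fell, 2 were among 25 genes of CREB1 and CREB-regulated coactivators and 2 among 6 glucocorticoid receptor genes. The others were 1 of 10 FOXO genes and 1 of 5 C/EBP genes.

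Other targets of ATF4 known from mammals were looked at because mitochondrial PEPCK is counted among them. Of 8 tested, 4 rose with TNP-LPS and none fell, where 10.04% of all genes were called higher. These 4 were sestrin-2 and the 3 tested copies of asparagine synthetase, and copies can share reads. The tested genes of DDIT3, CHAC1 and DDIT4 were not called without the block. Asparagine synthetase (GSONMG00060291001), which makes asparagine from aspartate, was at 135, 63.6 and 84.8 CPM in control, 278, 200 and 267 CPM with TNP-KLH, and 416, 468 and 472 CPM with TNP-LPS. It rose by 2.26 (edgeR adjusted p = 8.20e-04), and another copy (GSONMG00038883001) rose by 2.17. Sestrin-2 (GSONMG00046217001) rose by 2.45. DDIT3 (GSONMG00047437001), which encodes the stress factor CHOP, and CHAC1 (GSONMG00054562001), which breaks down glutathione, did not pass, with 0.09 and 0.39. DDIT4 (GSONMG00032085001), an inhibitor of mTOR signalling, was at 20.4, 344 and 149 CPM in control and at 1.09, 59.6 and 26.3 CPM with TNP-LPS, in the same order of numbers. Its log2 fold change of −2.56 had an edgeR adjusted p of 0.250 without and 5.16e-07 with the block.

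In TNP-KLH against control, 0.877% of all genes were called, 0.760% higher and 0.117% lower, and of the 261 listed genes 3 rose and none fell. These 3 were the PGC-1 family genes GSONMG00075158001, GSONMG00019093001 and GSONMG00033950001, with log2 fold changes of 1.52, 1.52 and 2.03 and edgeR adjusted p-values of 0.0321, 0.0449 and 0.0470. Each call was lost in 8 of the 9 fits that leave out 1 library, with adjusted p-values up to 0.162, and held with the block. At an unadjusted p under 0.05 there were 54 listed genes, DESeq2 called 18 higher and 3 lower, and edgeR with the block called 41 higher and 8 lower, where 10.3% of all genes were called, 6.05% higher and 4.23% lower. Serine and glycine synthesis held 7 of those 41, including D-3-phosphoglycerate dehydrogenase (GSONMG00030677001, log2 fold change 1.01, edgeR adjusted p 0.526 without and 0.0136 with the block). The cytoplasmic glycerol-3-phosphate dehydrogenase (GSONMG00047702001) had log2 fold changes of −1.04 with TNP-KLH and −1.03 with TNP-LPS, at an edgeR adjusted p of 0.0506 with TNP-KLH, and of 0.00219 with the block. Both comparisons use the same control libraries.

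In TNP-LPS against TNP-KLH, 2.87% of all genes were called, 2.12% higher and 0.745% lower. Of the listed genes 12 rose and none fell, 5 of them in lower glycolysis and pyruvate use, 4 in the TCA cycle, 2 at the entry of oxaloacetate and glutamine and 1 in serine and glycine synthesis. They included pyruvate kinase (GSONMG00039311001, edgeR adjusted p = 0.0371), malate dehydrogenase (GSONMG00016374001, 0.0258), aspartate aminotransferase (GSONMG00036879001, 0.0414) and serine hydroxymethyltransferase (GSONMG00047982001, 0.0276). These 4 calls were lost in 9, 7, 9 and 6 of the 9 fits that leave out 1 library. With the block all 4 held, and 66 listed genes were higher and 8 lower, where 14.4% of all genes were called, 8.49% higher and 5.94% lower.

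Last, the genes most like each PEPCK gene were taken from 11620 described genes with a mean of at least 10 CPM, by the Pearson correlation of log2 CPM over the 9 libraries. Closest to GSONMG00059643001 were nucleolar protein 10 (GSONMG00076581001, r = 0.992), which takes part in ribosome formation, spermatogenesis-associated protein 5 (GSONMG00026392001, 0.992), the MCM complex-binding protein (GSONMG00078119001, 0.992), the mitochondrial chaperone stress-70 protein (GSONMG00077339001, 0.991) and a tRNA cytosine methyltransferase (GSONMG00007801001, 0.990). The chaperone was at 151, 142 and 131 CPM in control, 397, 399 and 408 CPM with TNP-KLH, and 1055, 1014 and 970 CPM with TNP-LPS. Like GSONMG00059643001, it was in strict order and varied little within a condition, which follows largely from its choice by likeness.

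Closest to mitochondrial PEPCK was a less abundant copy of D-3-phosphoglycerate dehydrogenase (GSONMG00069605001, r = 0.983). It was at 26.1, 14.1 and 5.13 CPM in control, 39.4, 42.6 and 18.4 CPM with TNP-KLH, and 73.8, 114 and 76.3 CPM with TNP-LPS. In control and with TNP-KLH its libraries stood in the same order as those of mitochondrial PEPCK, and control replicate 1 again overlapped TNP-KLH replicate 3. Next came HERPUD2 (GSONMG00027113001, 0.979), mitochondrial C1-tetrahydrofolate synthase (GSONMG00015221001, 0.978), which handles the one-carbon units released from serine, ATAD1-B (GSONMG00065456001, 0.969) and the translocon-associated protein subunit alpha (GSONMG00073153001, 0.967). The mitochondrial C1-tetrahydrofolate synthase was at 25.4, 17.6 and 8.95 CPM in control, 41.5, 44.9 and 29.5 CPM with TNP-KLH, and 107, 112 and 82.5 CPM with TNP-LPS. The genes shared no gene among their closest 5, and GSONMG00059643001 stood 272nd in the ranking for mitochondrial PEPCK, which stood 1264th in the ranking of the other. These genes were taken for their likeness, so their values carry no test here.

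**Figure D5:**
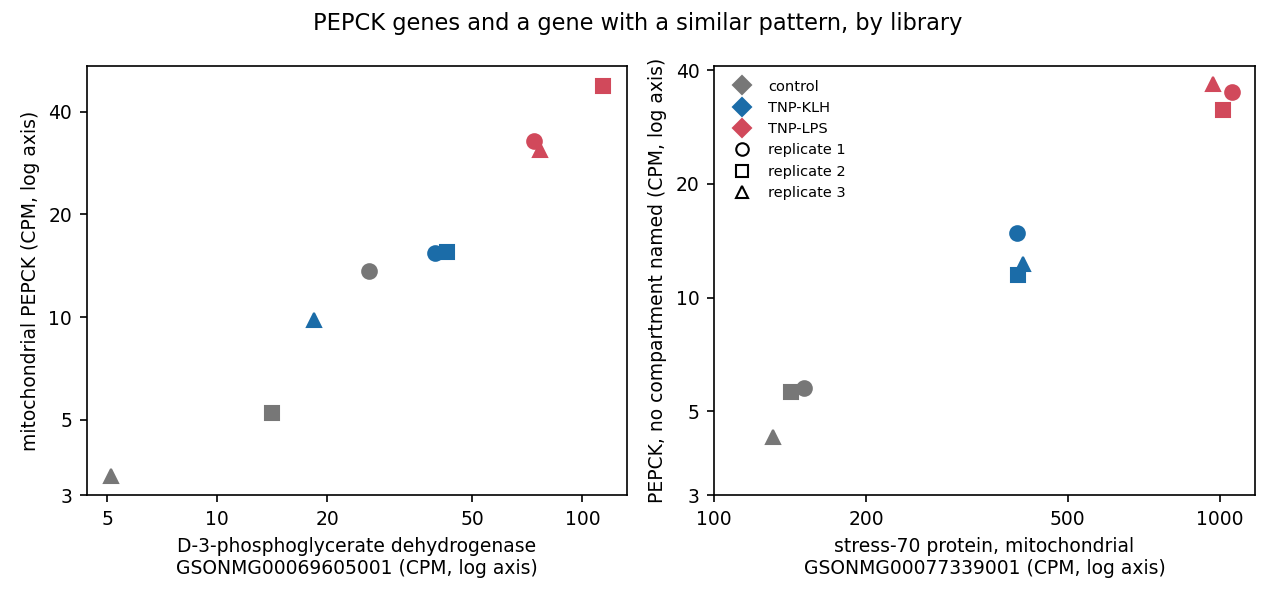
Left, mitochondrial PEPCK against D-3-phosphoglycerate dehydrogenase GSONMG00069605001, and right, GSONMG00059643001 against the mitochondrial stress-70 protein GSONMG00077339001, in CPM on log axes, with 1 point for each of the 9 libraries. Colours are conditions and shapes replicate numbers. The libraries of a condition form a tight group on the right, while on the left control replicates 1 and 3 lie apart, at 26.1 and 5.13 CPM of the dehydrogenase.

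To see what was shared apart from the conditions, each library's distance from the mean of its group was correlated with that of each PEPCK gene. For mitochondrial PEPCK the median correlation was 0.768 over the 7 serine and glycine genes with a mean of at least 10 CPM, from 0.440 for serine hydroxymethyltransferase (GSONMG00047982001) to 0.936 for D-3-phosphoglycerate dehydrogenase (GSONMG00069605001). Over all 12263 genes of that abundance the median was 0.00, with quartiles of −0.318 and 0.357. Of the 7 serine and glycine genes, 4 are copies of D-3-phosphoglycerate dehydrogenase, at 0.768 to 0.936 with mitochondrial PEPCK, and copies can share reads. The copy at 0.936 had already been taken as the gene most like mitochondrial PEPCK in these libraries. Its value here and the median of the list are therefore no independent evidence of a link. Phosphoserine aminotransferase (GSONMG00058137001) and phosphoserine phosphatase (GSONMG00079100001) were at 0.710 and 0.726. For GSONMG00059643001 the median over the same 7 genes was 0.577, beside −0.06 over all genes, with quartiles of −0.389 and 0.333. Some other lists had medians above that of all genes too. For 6 ATF4 targets they were 0.603 with mitochondrial PEPCK and 0.460 with GSONMG00059643001, for 5 glycerol phosphate genes 0.433 and 0.380, for 20 genes of lower glycolysis 0.366 and 0.273, and for 37 genes of the TCA cycle 0.235 and 0.408. In the same order, 18 genes of oxaloacetate and glutamine entry had −0.085 and 0.079, and 25 regulators −0.013 and −0.220. The 5 mitochondrial carriers had 0.143 and −0.051, and 2 genes of gluconeogenesis −0.030 and 0.031. The largest deviations of mitochondrial PEPCK from its group means were 1.10 in control replicate 1 and −0.839 in control replicate 3. Its correlations therefore rest largely on these control libraries. All correlations use the same 9 libraries, which also share their replicate numbers and depth, and are given as descriptions.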

How the data were processed

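RNA of 100000 sorted cells per library (integrity number above 7) was sequenced as single 50 nt reads from stranded libraries. The deposited counts per gene were made by the authors with TopHat on the Genoscope trout genome (minimum intron 50), SAMtools and HTSeq. For tool versions and strand setting, the sources used here give nothing. The deposited p-values, fold ratios and mean signal columns come from the authors' DESeq comparisons and were not used. The 3 tables hold the same counts. Total counts were 8080787 to 12164154, so a gene with 3 reads is near the limit of detection.

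Genes reaching 5 reads in 1 or more libraries were tested with edgeR 4.0.16 (R 4.3.3, TMM, quasi-likelihood test, 1 factor of 3 groups, all 9 libraries) with Benjamini-Hochberg adjustment over 31691 genes and a threshold of 0.05. Correlations used log2 CPM with a prior count of 2, and those of deviations were added after the other results were seen. DESeq2 1.42.0, RLE factors, other filters, the replicate block, fits of 2 groups and fits without single libraries were alternatives. The fit was tried on simulated counts drawn without any effect of the replicate number. That trial does not cover the pairing of the real libraries by number. Figures used Python 3.11.15 and matplotlib 3.10.9.

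Deviations from group means correlated at 0.303 to 0.749 in the 9 pairs of libraries with the same number and −0.571 to 0.0429 in the 18 others, so the numbers pair the samples; this comes from the data, not from the labels. The sources do not say whether libraries of a group are different fish, and p-values measure only the spread between these libraries. The PEPCK genes and the lists, matched by description, were chosen with earlier results of these data known. Named were all PEPCK rows, the most abundant copy of each list entry, up to 3 called genes per list with the smallest p in TNP-LPS against control, and the 5 genes most like each PEPCK gene. Further copies of enolase, the pyruvate dehydrogenase E1 alpha subunit, pyruvate dehydrogenase kinase and PGC-1-beta were named after their values had been seen. Of the entries, fumarate hydratase, tribbles homolog 3 and 4EBP1 matched no row, and the dicarboxylate carrier was below the filter.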

Additional observations from a re-analysis of the deposited data

How the results depend on the processing

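All log2 fold changes of both PEPCK genes stayed above 0 in each of the 16 alternatives, and those of mitochondrial PEPCK moved more. For mitochondrial PEPCK in TNP-KLH against control, some were no larger than about their SE. It was 0.58 (SE 0.41) without control replicate 3 and 0.59 (SE 0.62) without the libraries numbered 2. Both genes were chosen by these values, so the constant sign is a description only. Leaving out 1 library gave 1.98 to 3.12 for mitochondrial PEPCK in TNP-LPS against control, 0.58 to 1.72 in TNP-KLH against control and 1.21 to 1.57 in TNP-LPS against TNP-KLH. For GSONMG00059643001 the ranges were 2.59 to 2.81, 1.23 to 1.44 and 1.33 to 1.49. Without TMM factors its mean with TNP-LPS was 31.2 CPM. Without the 3 libraries numbered 2, an alternative added after seeing the data, the log2 fold changes were 2.86, 1.46 and 1.40 for GSONMG00059643001 and 1.93, 0.59 and 1.34 for mitochondrial PEPCK.

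In TNP-LPS against control, the replicate block called 9656 genes (5314 without it) and removed no call that the report names. Without the libraries numbered 2, 2506 genes and 50 listed genes were called, and leaving out 1 library gave 3654 to 4761 and 64 to 88. In TNP-KLH against control, DESeq2 called 1408 genes and 21 listed genes, the replicate block 3258 and 49, the edgeR fit of the 2 groups alone and the fit without the libraries numbered 2 called 0 and 0, and leaving out 1 library 0 to 356 and 0 to 4. At an unadjusted p under 0.05, the fit without the libraries numbered 2 had 2449 genes and 39 listed genes. With filterByExpr, 7 listed genes were called. In TNP-LPS against TNP-KLH, DESeq2 called 2310 genes and 38 listed genes, the block 4575 and 74, the fit of the 2 groups alone 41 and 0, the fit without the libraries numbered 2 called 0 and 0 (3994 and 69 at an unadjusted p under 0.05), and leaving out 1 library 0 to 851 and 0 to 9. The fits without libraries have fewer samples, and the cause of the other differences was not tested. With an arm of 2 libraries, the spread is pooled over all groups.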
